A study of Mus musculus with 18 samples.

Results

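The solute carrier groups Slc22a and Slco carry organic cations, carnitine and organic anions across the plasma membrane. Their members were taken as all genes whose mouse symbol, found through the array's transcript accession, begins with Slc22a or Slco and a number, whatever their signal. The array held 40 such genes, 26 of Slc22a and 14 of Slco, among 21153 genes that could be named. Livers came from 18 male C57BL/6 mice, each hybridised to its own 1-colour Agilent array. From 6 weeks of age the mice ate a diet with 10% (LFD) or 60% (HFD) of its energy as fat. After 10 weeks, part of each diet group received intraperitoneal methotrexate at 50 mg/kg in 5 rounds (LFD-MTX50 and HFD-MTX50), and livers of all groups were taken 1 week after the last round. Arrays numbered 4 each for LFD and HFD and 5 each for LFD-MTX50 and HFD-MTX50, none of them labelled as carrying a genetic change. The comparisons ask what the diet changed, what repeated methotrexate changed in the lean and in the obese liver, and whether the last 2 changes were unequal. Lean and obese here name the diet, LFD or HFD, and not the weight at harvest. The authors report that HFD mice so treated came to weigh about as much as untreated LFD mice.

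Members of Slc22a fall into organic cation transporters such as Slc22a2 and Slc22a3, carnitine and zwitterion transporters such as Slc22a5, organic anion transporters such as Slc22a6 and Slc22a7, and members with other or poorly known cargo. The Slco genes encode organic anion transporting polypeptides. Slco1b2 is the main one of the mouse hepatocyte's sinusoidal membrane, where it takes up bile acids, bilirubin conjugates and drugs, methotrexate among them. In mouse liver Slco1a1 is known to be higher in males and Slco1a4 in females, an asymmetry that depends on growth hormone and sex steroids.

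All values below are log2 of the processed signal minus log2 of the 75th percentile of the same array, so 0 is the signal of that percentile and 1 unit is a 2-fold change. A difference was called when limma's adjusted p, taken over all 35735 probes kept, was below 0.05, and a gene with several probes was read on its brightest one. The 75th percentile lay between 1203 and 2263 intensity units, 83.8% to 90.6% of probes were well above background, and no spot was saturated. All 6 hepatocyte markers were above background on all 18 arrays. Their summed linear level was 646 to 740 in LFD and 708 to 849 after methotrexate, against 591 to 686 in HFD and 522 to 702 after methotrexate, the lowest being HFD-MTX50 mouse 1. HFD-MTX50 mouse 5 stood apart in summed neutrophil markers, at 50.7 against 1.03 to 13 on all other arrays, the 13 being HFD-MTX50 mouse 4. Summed erythroid markers were 70.7 and 159 in HFD-MTX50 mice 4 and 5, against 2.24 to 3.74 in mice 1 to 3 of that group. The LFD arrays filled 1 slide that held no other group, so for every difference from LFD the slide and the group cannot be told apart. Only HFD and HFD-MTX50 shared a slide, with mice 3 and 4 of the former and mice 1 and 2 of the latter. In tissue RNA, fewer cells of a type and less RNA per cell cannot be told apart.

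The members that moved most on methotrexate sit in rows of related genes, on chromosome 19 (Slc22a26 to Slc22a30) and on chromosome 6 (Slco1a1, Slco1a4, Slco1a6, next to Slco1b2). The 170 bases before their transcript starts are shown for these genes except Slco1b2, from the RefSeq promoter table of build GRCm38.p6, 5′ to 3′ on the gene's own strand. Aligned without gaps at the best offset, the stretches of Slc22a28, Slc22a29 and Slc22a30 had 77% to 98.2% identical bases. The other pairs shown within a row shared 32.1% to 44.4%. An alignment without gaps misses likeness that inserted or lost bases interrupt. The lower values therefore do not show that those stretches are unrelated. Capitals mark matches on either strand to TTCNNNGAA (STAT), CAAAGTCCA (HNF4) or TGACNNNGC (the core of the antioxidant response element).
Slc22a26 (chr19:7802668-7802837, minus strand): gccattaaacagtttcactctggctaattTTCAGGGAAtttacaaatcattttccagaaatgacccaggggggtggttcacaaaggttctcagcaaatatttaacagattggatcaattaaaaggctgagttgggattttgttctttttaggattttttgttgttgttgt
Slc22a27 (chr19:7966028-7966197, minus strand): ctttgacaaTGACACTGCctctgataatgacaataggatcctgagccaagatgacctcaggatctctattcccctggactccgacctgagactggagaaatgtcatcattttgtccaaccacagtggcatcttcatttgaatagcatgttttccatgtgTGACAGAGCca
Slc22a28 (chr19:8131983-8132152, minus strand): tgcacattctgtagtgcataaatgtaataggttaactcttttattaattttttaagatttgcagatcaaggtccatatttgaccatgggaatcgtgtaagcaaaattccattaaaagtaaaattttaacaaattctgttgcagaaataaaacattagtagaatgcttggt
Slc22a29 (chr19:8218901-8219070, minus strand): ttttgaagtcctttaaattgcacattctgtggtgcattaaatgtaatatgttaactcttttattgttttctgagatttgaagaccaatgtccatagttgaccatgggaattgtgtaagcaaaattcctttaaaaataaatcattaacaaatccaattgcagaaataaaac
Slc22a30 (chr19:8405106-8405275, minus strand): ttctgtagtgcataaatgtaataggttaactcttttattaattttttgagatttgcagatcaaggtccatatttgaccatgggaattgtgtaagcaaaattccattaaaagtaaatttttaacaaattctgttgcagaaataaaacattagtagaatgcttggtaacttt
Slco1a1 (chr6:141946963-141947132, minus strand): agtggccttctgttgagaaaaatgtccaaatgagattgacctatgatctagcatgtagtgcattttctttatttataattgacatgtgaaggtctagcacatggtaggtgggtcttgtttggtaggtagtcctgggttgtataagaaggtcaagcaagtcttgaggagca
Slco1a4 (chr6:141856221-141856390, minus strand): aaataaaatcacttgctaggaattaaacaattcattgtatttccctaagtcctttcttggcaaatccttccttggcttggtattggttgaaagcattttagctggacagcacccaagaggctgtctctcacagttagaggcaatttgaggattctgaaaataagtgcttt
Slco1a6 (chr6:142186150-142186319, minus strand): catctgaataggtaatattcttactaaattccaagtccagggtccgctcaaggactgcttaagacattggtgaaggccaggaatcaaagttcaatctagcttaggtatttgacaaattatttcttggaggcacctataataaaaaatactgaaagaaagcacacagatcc

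The stretches of Slc22a28 and Slc22a30 were identical at 161 of 164 aligned bases (98.2%), and those of Slc22a28 and Slc22a29 at 117 of 152 (77%), without gaps. Motifs were counted from 250 bases before to 50 after the transcript start. The STAT letters stood in 8 of 39 promoter entries of 34 members (20.5%, against 8.3% of 32851 promoters in the table), those of Slc22a26 from base −141 counted from that start, and the antioxidant letters in 4 (10.3% against 12.4%), among them Slc22a27. No member's promoter held the HNF4 letters, which stood in 0.475% of all promoters. A match of letters is a description of the window and not a binding site.

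Of the 40 members, 36 were above background on at least 4 arrays and could be compared, and 29 were above background on all 18. Slco6c1 was not above background on any array, Slco4c1 and Slc22a19 on 1 array each and Slco6d1 on 2. Of the members read, Slco1a6 was above background on 17 arrays, Slc22a2 on 15, Slc22a22 on 12, Slc22a12 and Slco1a5 on 8, and Slc22a3 and Slc22a8 on 4. Slco1b2 had the brightest probe of the set, brighter than 98.3% of the 19597 genes read. Its mean was 5.62 ± 0.09 (SD, n = 4) in LFD and 5.36 ± 0.20 (SD, n = 5) after methotrexate, and 5.30 ± 0.26 (SD, n = 4) in HFD and 5.18 ± 0.33 (SD, n = 5) after methotrexate. Among the next were the orphan Slc22a17, which binds the siderophore carrier lipocalin-2, and the imprinted gene Slc22a18, with probes brighter than 91.5% and 90.8% of the genes read. Slco2b1, Slc22a28, Slc22a13 and Slc22a6 followed. Probes differ in how brightly they bind, so this order is one of signal and not of transcript number.

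**Figure D1:**
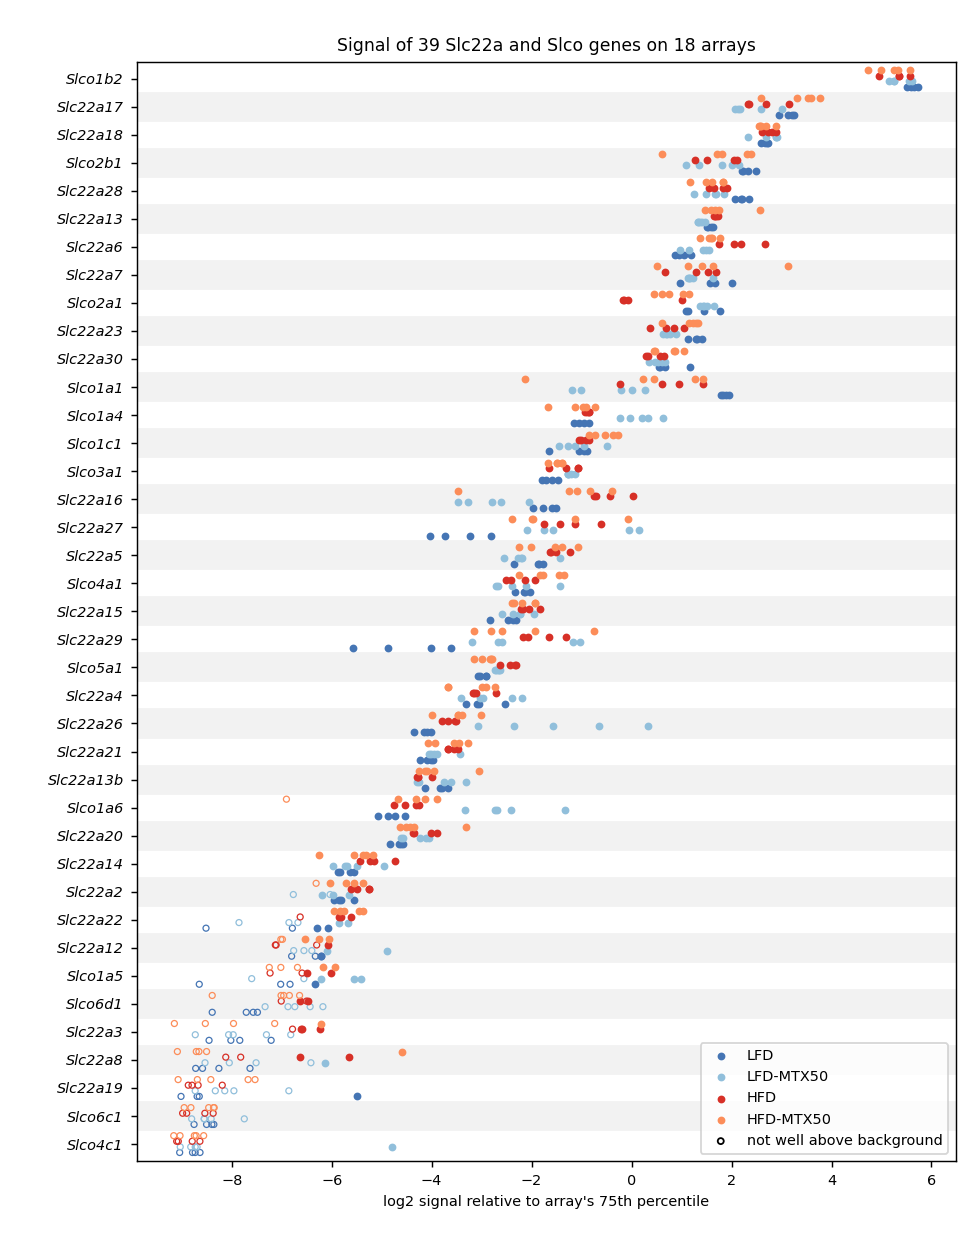
Log2 signal relative to the array's 75th percentile (x axis) of 39 Slc22a and Slco genes (rows, ordered by mean signal), one point per mouse, with a colour for each of the 4 groups and open points where the probe was not well above background. The colours of LFD and LFD-MTX50 lie apart for Slc22a26, Slc22a27, Slc22a29, Slco1a1, Slco1a4 and Slco1a6, and the points of Slco6c1, Slco4c1, Slc22a19 and Slco6d1 are mostly open.

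In the lean liver, repeated methotrexate went with higher signal of organic anion transporters of the Slc22a26 row and of Slco1a4 and Slco1a6, and with lower signal of Slco1a1. Of the 36 members 11 were called (30.6%, against 28.1% of all 19597 genes read), 7 higher (background 17.6%) and 4 lower (background 10.5%). Changes of at least 2-fold were found in 6 members (16.7%, against 4.75% of all genes). The median log2 difference was 0.115 over the members and 0.105 over all genes, and the second fell to −0.002 under quantile normalization. Of all calls 62.7% were higher in the treated mice, and 44.8% under quantile normalization and 44.4% under median scaling, with the members' calls then 6 higher and 4 lower and 6 higher and 5 lower.

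Slc22a26, an organic anion transporter gene of the chromosome 19 row, stood at −4.16, −4.36, −4.02 and −4.09 in the 4 LFD mice and at −1.57, −0.66, −2.34, −3.08 and 0.32 in LFD-MTX50 mice 1 to 5. Every treated mouse was above every untreated one, and mouse 5 was the highest. The log2 difference was 2.69 ± 0.46 (SE), or 6.45-fold (adjusted p 0.0018, limma). Slc22a27, from the same row, was −3.23, −3.72, −2.80 and −4.04 in LFD and −1.58, −0.05, −2.09, −1.75 and 0.15 in LFD-MTX50. The groups did not overlap (the smallest exact permutation p for 4 against 5 mice is 0.00794), the difference was 2.39 ± 0.50 or 5.23-fold (adjusted p 0.0048), and mice 2 and 5 were the highest. Slc22a29 was −4.01, −5.57, −3.61 and −4.87 in LFD and −2.68, −1.17, −3.20, −2.59 and −1.03 in LFD-MTX50. Mice 2 and 5 were again the highest and no value overlapped (2.38 ± 0.53, 5.2-fold, adjusted p 0.0059). Their neighbour Slc22a28 went the other way, from 2.08, 2.21, 2.18 and 2.34 to 1.49, 1.67, 1.68, 1.85 and 1.25, also without overlap. It fell by 0.61 on the log2 scale (SE 0.14, adjusted p 0.0075), and its other probe fell by 0.96 (adjusted p 0.008). Slc22a30, whose promoter stretch is nearly that of Slc22a28, read 0.55 to 1.18 in LFD and 0.35 to 0.66 in LFD-MTX50 and was not called (−0.22 ± 0.15, 95% interval −0.54 to 0.10). The genes of the row are closely related, and how far their probes read each other's transcripts was not tested.

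Among the Slco1 genes, Slco1a4, which takes up bile acids, steroid conjugates and cardiac glycosides, was −1.05, −0.86, −1.14 and −0.96 in LFD and −0.02, 0.20, 0.32, −0.23 and 0.62 in LFD-MTX50. The treated values lay above all others of the 18 arrays. The difference of 1.18 ± 0.17 or 2.27-fold (adjusted p 0.00088) was past the threshold in each of the 15 other settings run for it and without each of the 18 arrays in turn. Slco1a6 rose from −4.73, −4.53, −4.87 and −5.07 to −2.73, −2.70, −2.42, −3.34 and −1.33, with no overlap and mouse 5 the highest (2.29 ± 0.48, 4.9-fold, adjusted p 0.0047). Slco1a1, the member known to be higher in male liver, was tight in LFD, at 1.78, 1.95, 1.83 and 1.88. In LFD-MTX50 it read −1.01, 0.27, −0.21, 0.00 and −1.20, lowest in mice 5 and 1, and fell by 2.29 on the log2 scale (SE 0.56, 4.89-fold, adjusted p 0.009). Slco1b2 was not called, at 5.51 to 5.74 in LFD and 5.15 to 5.60 in LFD-MTX50, a difference of −0.26 ± 0.16 with a 95% interval of −0.59 to 0.08. The promoter stretches of Slco1a4 and Slco1a1 were identical at 54 of 142 bases aligned without gaps (38%).

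**Figure D2:**
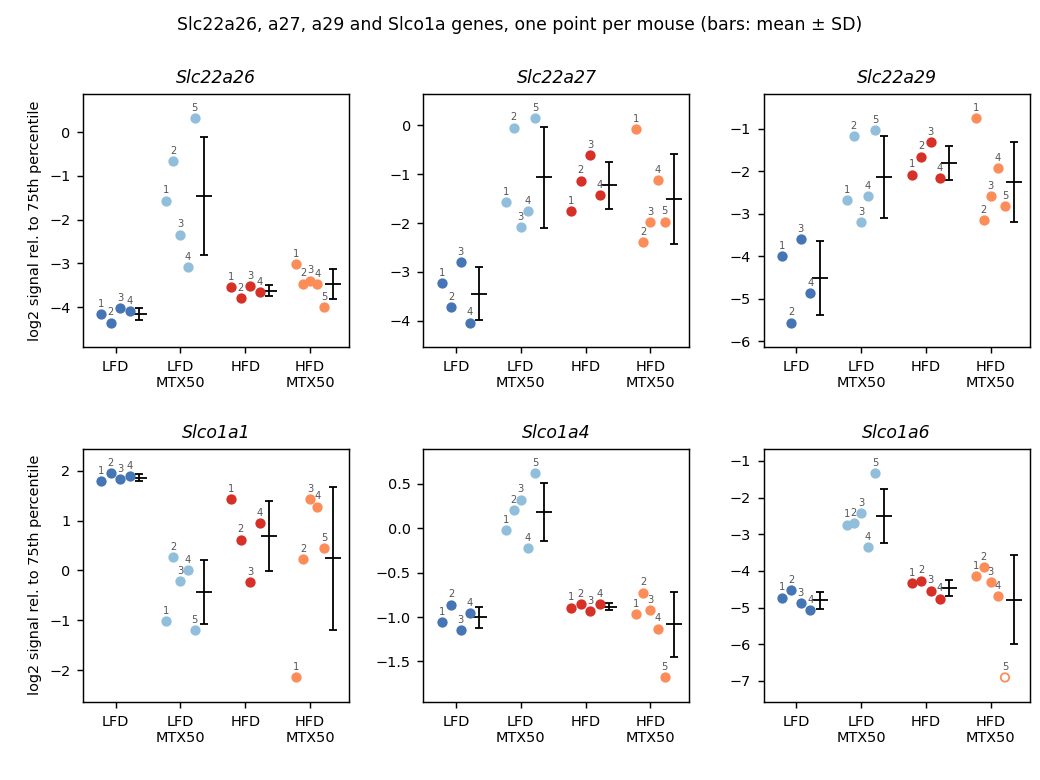
Log2 signal relative to the array's 75th percentile (y axis) of Slc22a26, Slc22a27, Slc22a29, Slco1a1, Slco1a4 and Slco1a6 in each mouse of the 4 groups, numbered by mouse, with mean and SD as bars and an open point where the probe was not well above background. LFD-MTX50 lies apart from LFD in all 6 panels, and HFD lies apart from LFD in the panels of Slc22a27, Slc22a29 and Slco1a1, and by a smaller step in that of Slc22a26.

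The other members called in the lean liver changed by less than 2-fold. Slc22a17 read 3.22, 3.13, 3.26 and 2.96 in LFD and 2.59, 2.13, 2.06, 2.17 and 3.01 in LFD-MTX50, where mouse 5, alone on its slide, lay within the untreated range (−0.75 ± 0.24, adjusted p 0.029). The orphan Slc22a23 fell from 1.30, 1.42, 1.14 and 1.28 to 0.72, 0.78, 0.64, 0.90 and 0.69 without overlap (−0.54 ± 0.15, adjusted p 0.015). Slco3a1, a broadly expressed carrier of prostaglandins and thyroid hormone, read −1.60, −1.71, −1.80 and −1.48 in LFD and −1.28, −1.27, −1.28, −1.22 and −1.13 in LFD-MTX50, and rose by 0.41 (adjusted p 0.018). Slco5a1, whose cargo is little known, read −2.92, −3.04, −3.08 and −2.92 and −2.72, −2.68, −2.64, −2.65 and −2.74 and rose by 0.30 (adjusted p 0.025). Neither gene overlapped between the groups. The Slco5a1 call was lost under quantile normalization (0.11, adjusted p 0.35), median scaling (0.20, adjusted p 0.079) and the series value table (0.23, adjusted p 0.14), and without LFD mouse 2, LFD mouse 3 or LFD-MTX50 mouse 3 (adjusted p 0.07, 0.073 and 0.054). The other Slco3a1 probe, laid on another transcript, had a difference of −0.28 (adjusted p 0.3), and with the mean of both probes Slco3a1 was at 0.06 (adjusted p 0.72). With slide as a random block (correlation 0.262 between arrays of a slide) 2 of the 11 calls were left, Slc22a26 (2.93, adjusted p 0.035) and Slco1a4 (1.24, adjusted p 0.024). Over all 19597 genes read the calls went from 5503 to 340 with that block. Summed erythroid markers were 30.8 to 48 in LFD and 1.91 to 2.95 in LFD-MTX50 (5 of 6 above background on all arrays). Cholangiocyte markers were 1.12 to 1.58 and 1.87 to 2.12 (4 of 6), and kidney markers 5.68 to 6.45 and 4.94 to 5.35 (5 of 6). None of these sums overlapped between the groups, while neutrophil markers did, at 1.03 to 1.33 and 1.12 to 7.13. The sums are of linear levels, and single kidney and erythroid markers went both ways. Of 5 kidney markers read, 2 were called higher and 1 lower (median log2 difference 0.669), and of 5 erythroid ones 1 higher and 3 lower. The part of these marker sets in the results was not tested.

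The high-fat diet went with higher signal of Slc22a29, Slc22a27 and Slc22a6 and lower signal of the prostaglandin transporter Slco2a1. Of the 36 members 10 were called (27.8%, against 28.3% of all genes read), 7 higher (background 18%) and 3 lower (background 10.4%), and 4 changed by at least 2-fold (11.1%, against 2.86%). The median log2 difference was 0.316 over the members and 0.08 over all genes. Of all calls 63.4% were higher in HFD, and 45.6% under quantile normalization and 45.5% under median scaling, with the members' calls then 4 higher and 2 lower and 4 higher and 3 lower. LFD is the control of this comparison and of the previous one, so both rest on the same 4 control arrays.

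Slc22a29 read −2.08, −1.66, −1.31 and −2.17 in HFD against −5.57 to −3.61 in LFD, a difference of 2.71 ± 0.56 or 6.53-fold (adjusted p 0.005). Slc22a27 read −1.75, −1.13, −0.61 and −1.43 in HFD against −4.04 to −2.80 in LFD (2.22 ± 0.53, 4.66-fold, adjusted p 0.0091). Neither overlapped with LFD. Slc22a26 did not overlap either, at −3.54, −3.79, −3.52 and −3.67 in HFD, but its step of 0.53 ± 0.49 was not called (adjusted p 0.42). Slc22a6, a transporter best known for taking organic anions and methotrexate from blood into the kidney tubule, was 1.05, 0.95, 0.87 and 1.19 in LFD and 1.75, 2.67, 2.04 and 2.20 in HFD. All HFD mice were above all LFD mice, highest in HFD mouse 2, and the difference was 1.15 ± 0.17 or 2.21-fold (adjusted p 0.0024). Summed kidney markers were 5.68 to 6.45 in LFD and 7.21 to 8.5 in HFD, of which Slc12a1, which defines the thick ascending limb, was not above background on any array. The sum is of linear levels, so it follows mainly Aqp2, the brightest of them (mean 2.28, next Slc34a1 at −0.007). Of 5 kidney markers read, 2 were called higher in HFD and none lower (median log2 difference 0.346). The part of the kidney markers in the Slc22a6 result was not tested.

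Slco2a1, which takes up prostaglandins for breakdown and is strong in endothelium, read 1.44, 1.08, 1.14 and 1.77 in LFD and 1.02, −0.07, −0.17 and −0.15 in HFD. HFD mouse 1 lay just under the LFD values and the other HFD mice more than 1 unit lower, a difference of −1.20 ± 0.23 or 2.29-fold (adjusted p 0.0042). The summed level of the 6 sinusoidal endothelial markers, all above background on all arrays, was 17.7 to 24.7 in LFD and 22.4 to 26.7 in HFD, and their part in the Slco2a1 result was not tested. Slco5a1 rose from −2.92, −3.04, −3.08 and −2.92 to −2.63, −2.43, −2.30 and −2.34 (0.56 ± 0.10, adjusted p 0.0033). The groups did not overlap, and the exact permutation p of 0.0286 is the smallest that 4 against 4 mice allow. Slc22a21, a carnitine transporter of the mouse, read −4.24, −3.98, −4.02 and −4.09 in LFD and −3.48, −3.67, −3.68 and −3.55 in HFD, higher by 0.49 without overlap (adjusted p 0.036). Slc22a15 read −2.31, −2.82, −2.48 and −2.37 and −2.06, −2.21, −1.83 and −2.18, also apart (0.42, adjusted p 0.049). Slco3a1 read −1.66, −1.31, −1.06 and −1.07 in HFD, where mouse 1 lay inside the LFD range (0.37, adjusted p 0.034). Its other probe was lower in every HFD mouse than in any LFD mouse (−0.32, adjusted p 0.26), and with the mean of both probes the call was lost (0.02, adjusted p 0.91). The call of Slc22a15 was lost in 12 of 18 fits that left out 1 array. Slc22a23 fell from 1.30, 1.42, 1.14 and 1.28 to 1.06, 0.84, 0.38 and 0.69 (−0.54 ± 0.16, adjusted p 0.019) and Slc22a28 from 2.08, 2.21, 2.18 and 2.34 to 1.92, 1.54, 1.65 and 1.82 (−0.47 ± 0.15, adjusted p 0.03), neither with overlap. The other Slc22a28 probe was lower too but overlapped, at 1.80 to 2.21 in LFD and 0.94 to 1.82 in HFD. The Slc22a28 call was lost with the mean of both probes and with quantile normalization, and held in 12 of 18 fits that left out 1 array.

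Slco1a1 was lower in every HFD mouse, at 1.43, 0.62, −0.24 and 0.94, than in any LFD mouse, yet the difference of −1.17 ± 0.58 was not called (adjusted p 0.13). With HFD-MTX50 mouse 1 left out of the fit it was called (adjusted p 0.028). Slc22a16, a carnitine transporter best known from testis, read −1.78, −1.60, −1.52 and −1.98 in LFD, −2.80, −3.46, −2.61, −3.27 and −2.06 in LFD-MTX50 and 0.02, −0.75, −0.71 and −0.43 in HFD, 3 groups that did not overlap. It was not called (1.25 ± 0.48 in HFD against LFD, adjusted p 0.058, and −1.12 ± 0.45 in LFD-MTX50 against LFD, adjusted p 0.07), and both were called without HFD-MTX50 mouse 1 (adjusted p 0.006 and 0.0062). With slide as a random block 2 of the 10 diet calls were left, Slc22a6 (1.15, adjusted p 0.046) and Slco5a1 (0.55, adjusted p 0.046), and with quantile normalization 6. Over all 19597 genes read the diet calls went from 5555 to 380 with the slide block and to 3760 with quantile normalization. Summed adipocyte markers, all 6 above background on all arrays, were 0.994 to 1.33 in LFD and 5.46 to 8.37 in HFD, and exocrine pancreas markers, 5 of 6 on all arrays, 5.56 to 6.31 and 6.59 to 7.8, and their part in the diet results was not tested.

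**Figure D3:**
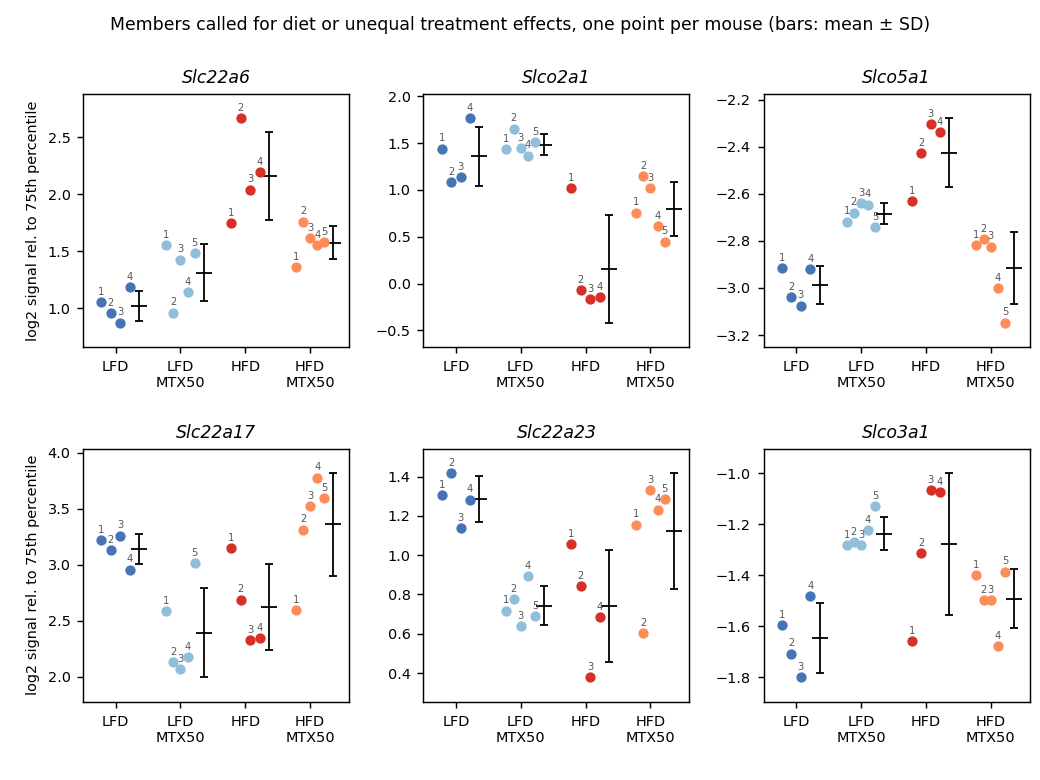
Log2 signal relative to the array's 75th percentile (y axis) of Slc22a6, Slco2a1, Slco5a1, Slc22a17, Slc22a23 and Slco3a1 in each mouse of the 4 groups, numbered by mouse, with mean and SD as bars. Slc22a6 and Slco5a1 are highest in HFD and lower again in HFD-MTX50, and HFD mouse 1 lies apart from the other HFD mice in Slco2a1 and Slco3a1.

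In the obese liver methotrexate went with lower signal of Slc22a6 and Slco5a1 and with no other called member. The count of 2 of 36 (5.56%) compares with 11% of all genes read. Both were lower (background 6.13%). No member was called higher by limma (background 4.83%), and none of all genes read was called by a per-gene test that shares no variance between genes, after adjustment. At an unadjusted p below 0.05 there were 5 members higher (Slc22a17, Slc22a23, Slco1c1, Slco2a1 and Slco4a1, against 13.2% of all genes read) and 4 lower (Slc22a3, Slc22a6 and Slco5a1 among them, against 17.7%). None of the called changes reached 2-fold (background 0.975%), and at an unadjusted p below 0.05 Slc22a3 alone did, near its background, against 1.74% of all genes. The median log2 difference was −0.111 over the members and −0.04 over all genes. Summed adipocyte markers were 5.46 to 8.37 in HFD and 1.49 to 2.68 in HFD-MTX50, though of the 6 markers 2 were called lower and 1 higher (median log2 difference −0.658). Exocrine pancreas markers were 6.59 to 7.8 and 3.95 to 5.58. Erythroid markers were 17.6 to 42.7 in HFD, and in HFD-MTX50 2.24 to 3.74 in mice 1 to 3 and 70.7 and 159 in mice 4 and 5. The part of these 3 marker sets in this comparison was not tested.

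Slc22a6 went from 1.75, 2.67, 2.04 and 2.20 in HFD to 1.36, 1.76, 1.61, 1.55 and 1.58 in HFD-MTX50. Only HFD mouse 1 lay inside the treated range, and the fall was 0.59 on the log2 scale (SE 0.16, adjusted p 0.031). On the slide that held both groups the difference was −0.56 (adjusted p 0.24 for those arrays alone and 0.3 with slide as a fixed block). Summed kidney markers were 7.21 to 8.5 in HFD and 5.56 to 7.55 in HFD-MTX50, and of these the water channel Aqp2 was called lower (−0.41, adjusted p 0.039), and their part in the fall of Slc22a6 was not tested. Slco5a1 went from −2.63, −2.43, −2.30 and −2.34 to −2.82, −2.79, −2.82, −3.00 and −3.15, without overlap, and fell by 0.49 (SE 0.09, adjusted p 0.009). On the shared slide it differed by −0.48 (adjusted p 0.2, and 0.15 with slide as a fixed block). Slco5a1 turned to a difference of 0.53 (adjusted p 0.46) under another background correction. With HFD mouse 1 left out 6 of the 36 members were called (3034 of the 19597 genes read), the other ones being Slc22a17, Slc22a23, Slco2a1 and Slco3a1. Without HFD mouse 2, 3 or 4 only Slco5a1 was called (1091, 300 and 282 of the genes read). Slco2a1 was higher in HFD-MTX50 than in HFD mice 2 to 4, at 0.76, 1.15, 1.02, 0.61 and 0.45, with a difference of 0.64 ± 0.22 that was not called (adjusted p 0.066).

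The genes that led the lean response gave no call in the obese liver. Slc22a26 read −3.02, −3.46, −3.40, −3.48 and −4.00 in HFD-MTX50 mice 1 to 5 and Slco1a4 −0.96, −0.72, −0.92, −1.13 and −1.68. Their differences from HFD were 0.15 ± 0.46 (95% interval −0.82 to 1.13) and −0.20 ± 0.17 (95% interval −0.57 to 0.17). Slc22a27 read −0.07, −2.38, −1.98, −1.12 and −1.97 and Slc22a29 −0.75, −3.15, −2.59, −1.93 and −2.82. In these 2 genes the untreated HFD mice, at −1.75 to −0.61 and −2.17 to −1.31, already lay within the LFD-MTX50 range. Slco1a6 read −4.32, −4.26, −4.54 and −4.76 in HFD and −4.14, −3.89, −4.31, −4.68 and −6.91 in HFD-MTX50, its mouse 5 not well above background. Slco1a4 read −0.89, −0.85, −0.93 and −0.86 in HFD. Slco1a1 read −2.14, 0.23, 1.42, 1.28 and 0.45 in HFD-MTX50, the widest scatter of these genes in that group. Mouse 1 was the highest of its group in Slc22a26, Slc22a27 and Slc22a29 and the lowest in Slco1a1, more than 2 units below the next mouse in the last. In LFD-MTX50, mouse 5 was likewise the highest in Slc22a26, Slc22a27, Slc22a29, Slco1a4 and Slco1a6 and the lowest in Slco1a1. These are single mice described after their values were seen, with no test.

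Whether the 2 methotrexate responses were unequal was tested as the HFD-MTX50 against HFD difference minus the LFD-MTX50 against LFD difference. It was called for 10 of the 36 members (27.8%, against 26.8% of all genes read), 2 with a positive value (background 8.66%) and 8 with a negative one (background 18.1%). Of all calls 32.4% were positive, and 47.1% under quantile normalization and 51.3% under median scaling, with the members' calls then 2 positive and 8 negative and 4 positive and 8 negative. The 4 widest gaps were those of Slco1a6 and 3 transporters of the Slc22a26 row, Slc22a29 by −2.83 ± 0.74 (adjusted p 0.014), Slc22a27 by −2.66 ± 0.71 (adjusted p 0.015) and Slc22a26 by −2.54 ± 0.65 (adjusted p 0.013). In Slc22a27 and Slc22a29 LFD alone was low, with means of −3.45 and −4.51. The means were −1.06 and −2.13 in LFD-MTX50, −1.23 and −1.80 in HFD and −1.51 and −2.25 in HFD-MTX50. Their diet call, lean call and contrast thus all rest on the same 4 LFD arrays of 1 slide. Slco1a6 differed by −2.61 ± 0.68 (adjusted p 0.013) and Slco1a4 by −1.38 ± 0.25 (adjusted p 0.0048). Slco1a1 was not among them (1.85 ± 0.78, adjusted p 0.085), and was called with HFD-MTX50 mouse 1 left out (2.45, adjusted p 0.0046). Slc22a6 (−0.88), Slco5a1 (−0.79) and Slco3a1 (−0.62) differed by less than 1 unit, each with a positive difference on the lean and a negative one on the obese side. The other Slco3a1 probe had the opposite signs and a contrast of 0.54 (adjusted p 0.17), and the mean of both probes gave −0.04 (adjusted p 0.87). Slc22a17, lower after methotrexate in the lean liver, had a positive difference in the obese one, where HFD mice stood at 3.15, 2.69, 2.33 and 2.34 and HFD-MTX50 mice at 2.60, 3.31, 3.52, 3.78 and 3.59. The obese difference of 0.73 ± 0.24 was not itself called (adjusted p 0.055), while the contrast of the 2 responses was 1.48 ± 0.34 (adjusted p 0.0082). Slc22a23 had differences of the same signs (0.92 ± 0.21, adjusted p 0.008), with HFD-MTX50 mice at 1.16, 0.60, 1.33, 1.23 and 1.28. With slide as a random block 6 of the 10 were left, namely Slc22a17, Slc22a23, Slc22a26, Slco1a4, Slco3a1 and Slco5a1. Over all 19597 genes read the calls went from 5243 to 1249 with that block.

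**Figure D4:**
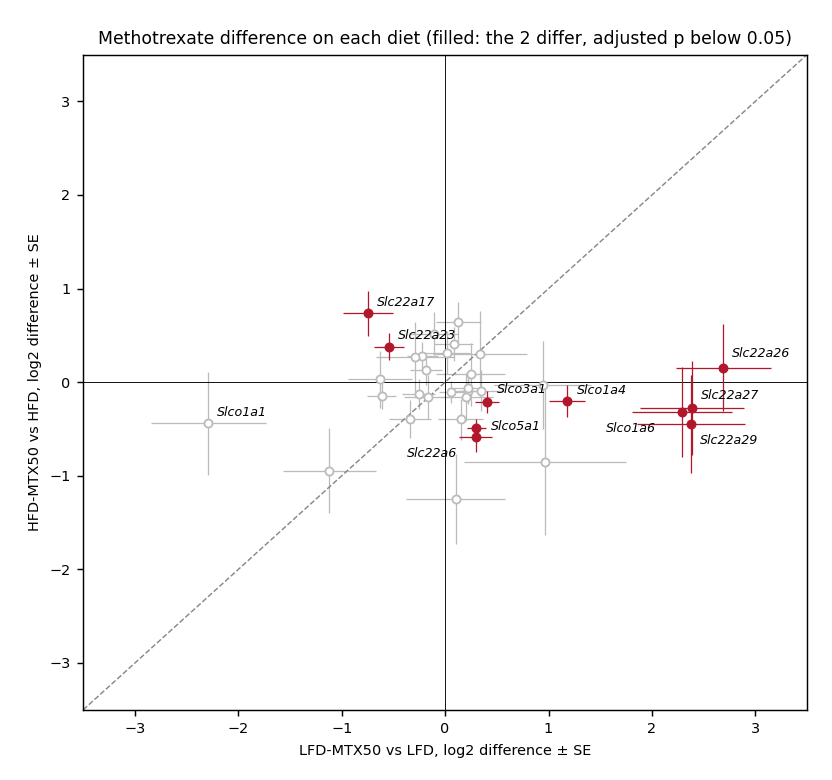
Log2 difference between methotrexate and no treatment in lean mice (x axis, LFD-MTX50 against LFD) and in obese mice (y axis, HFD-MTX50 against HFD) for 35 members, with SE as bars and the line of equal differences dashed. Filled points are the 10 members whose 2 differences were unequal at an adjusted p below 0.05, and Slc22a26, Slc22a27, Slc22a29 and Slco1a6 lie beyond 2 units on the lean axis and within 0.5 unit of 0 on the obese one.

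By role, the organic cation transporters Slc22a2 and Slc22a3 gave no call. Slc22a2 was dim, and Slc22a3, the extraneuronal monoamine transporter, was above background on 3 of 4 HFD arrays, on 1 HFD-MTX50 array and on no lean array, at −6.61, −6.59, −6.78 and −6.23 in HFD and −8.02, −7.21, −8.45 and −7.84 in LFD, where the latter are values below detection. Of the 4 carnitine and cation transporters Slc22a21 alone was called, in 1 comparison. Slc22a5, the high-affinity carnitine transporter, was −1.97 ± 0.27 in LFD and −1.50 ± 0.19 in HFD (adjusted p 0.16), and Slc22a4 read −3.32 to −2.54 in LFD and −3.18 to −2.71 in HFD. Of the organic anion members read, those called in some comparison were Slc22a6, Slc22a26, Slc22a27, Slc22a28 and Slc22a29. Slc22a7, a hepatocyte transporter of organic anions and nucleotides, was 1.55 ± 0.44 in LFD and 1.56 ± 0.97 in HFD-MTX50, with mouse 5 of the latter at 3.12. Slc22a13, a transporter of urate and nicotinate, read 1.51 to 1.64 in LFD, 1.32 to 1.46 in LFD-MTX50 and 1.64 to 1.72 in HFD, and HFD-MTX50 mouse 5 alone stood out at 2.56. In the groups not yet given, Slc22a6 was 1.31 ± 0.25 in LFD-MTX50 and Slc22a28 1.59 ± 0.27 in HFD-MTX50. Slc22a8, Slc22a12, Slc22a22, Slc22a13b, Slc22a20 and Slc22a30 were not called in any comparison, and the first 3 of these were not above background on every array. Among the other Slc22a members, Slc22a18 was 2.68 ± 0.06, 2.74 ± 0.25, 2.76 ± 0.12 and 2.66 ± 0.14 in the 4 groups, and neither it nor Slc22a14 was called in any comparison. The 2 called in the diet comparison alone, Slc22a15 and Slc22a21, were −2.28 ± 0.23 and −3.87 ± 0.26 in LFD-MTX50 and −2.16 ± 0.22 and −3.66 ± 0.34 in HFD-MTX50.

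Of the 11 Slco members read, Slco1a5, Slco1b2, Slco1c1, Slco2b1 and Slco4a1 were not called in any comparison. Slco2a1, called for the diet, read 1.44, 1.65, 1.45, 1.37 and 1.51 in LFD-MTX50, where no value left the LFD range. Slco3a1 was −1.49 ± 0.12 in HFD-MTX50. Slco4a1, a thyroid hormone carrier, read −2.33 to −2.04 in LFD, −2.72 to −1.44 in LFD-MTX50, −2.52 to −1.93 in HFD and −2.25 to −1.35 in HFD-MTX50. Slco2b1, an uptake carrier for steroid sulphates and statins, was 2.31 ± 0.13 in LFD and lower in all other groups, at 1.68 ± 0.45, 1.74 ± 0.41 and 1.77 ± 0.71. Neither LFD-MTX50 nor HFD overlapped with LFD, though the adjusted p was 0.13 and 0.18. Its other probe gave differences of −0.34 (adjusted p 0.32) and −0.24 (adjusted p 0.52). Slco1c1, the thyroid hormone transporter of the blood-brain barrier, was read on a probe at −1.14 ± 0.35 in LFD, while its other probe was not above background on any array. Slc22a15 was called in HFD on its brighter probe, and its other probe rose in LFD-MTX50 by 0.58 (adjusted p 0.011), where the brighter one did not pass (0.22, adjusted p 0.26).

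**Figure D5:**
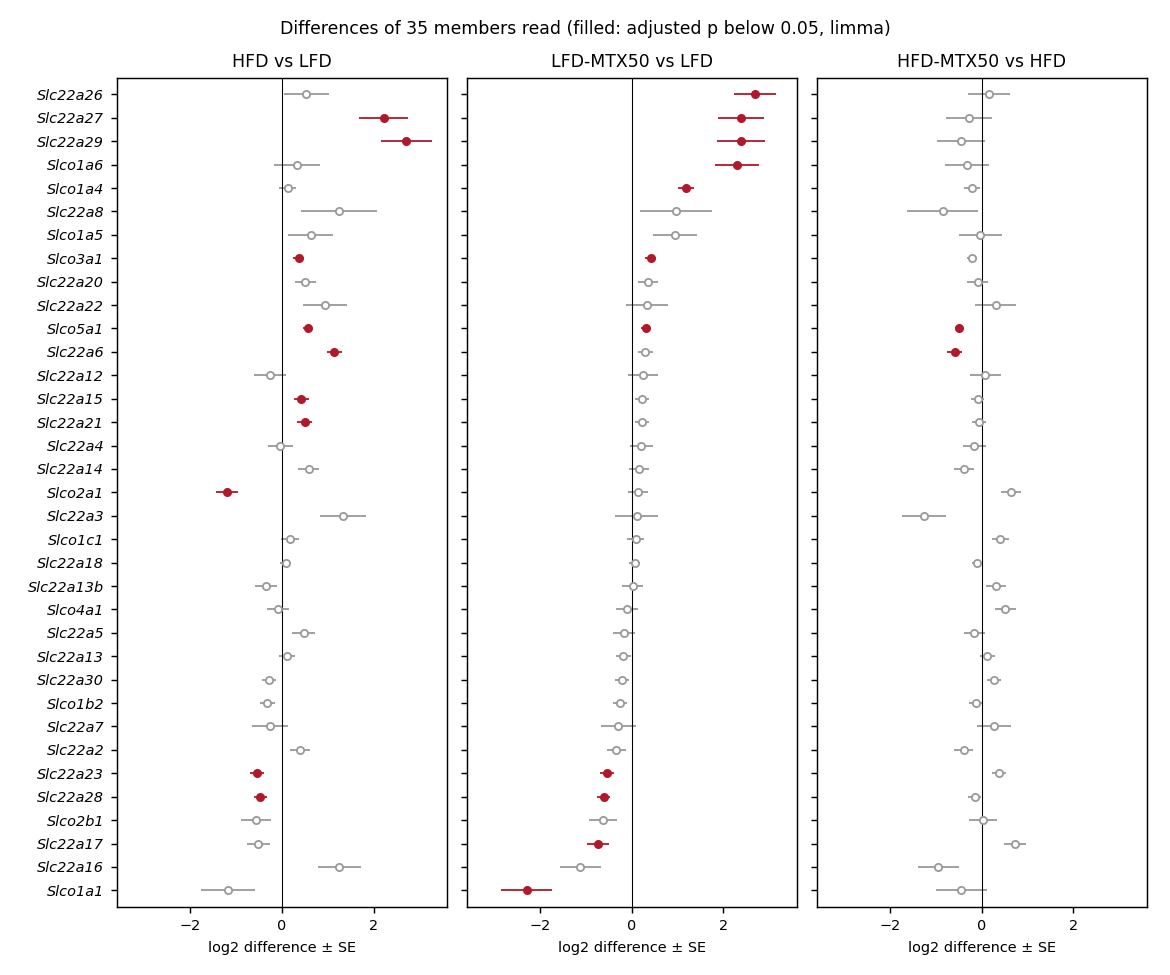
Log2 differences with SE (x axes) of 35 members read (rows, ordered by the lean methotrexate difference) for HFD against LFD, LFD-MTX50 against LFD and HFD-MTX50 against HFD, with filled points where the adjusted p was below 0.05. Filled points number 10, 11 and 2 from left to right, and those beyond 2 units are Slc22a27 and Slc22a29 in the first panel and Slc22a26, Slc22a27, Slc22a29, Slco1a6 and Slco1a1 in the second.

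Genes that carry methotrexate and bile acids beside these families were read from a list of 21 transporters, of which 20 were kept. In LFD-MTX50 against LFD 6 were called, 4 higher and 2 lower (28.1% of all genes read were called there), and the list's median log2 difference was 0.043 there, 0.305 in HFD against LFD and −0.028 in HFD-MTX50 against HFD. Abcg2, an efflux pump with methotrexate among its substrates, fell by 1.48 (SE 0.15, adjusted p 6.6e-05), from 3.00, 2.65, 2.99 and 2.98 to 1.39, 1.27, 1.51, 1.67 and 1.26, and its 2 responses were unequal (adjusted p 0.0053). The efflux pumps Abcb1a (0.60) and Abcb1b (0.59), the thiamine transporter Slc19a3 (0.42) and the bile acid carrier Slc10a1 (0.27, adjusted p 0.043) rose, and the folate transporter Slc46a1 fell by 0.29. In HFD against LFD 5 were called (28.3% of all genes), with Slc19a3 (0.73), the efflux transporter Slc47a2 (0.59), Abcb1a (0.43) and the reduced folate carrier Slc19a1 (0.38 ± 0.12, adjusted p 0.031) higher and the bile salt pump Abcb11 lower (−0.75). In HFD-MTX50 against HFD, 1 was called (11% of all genes), the cation efflux transporter Slc47a1 (−0.62, adjusted p 0.024). Abcc2, the canalicular pump for conjugated anions, was 2.89 ± 0.04 in LFD and 2.61 ± 0.28 in HFD-MTX50 and was not called in any comparison.

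Among 22 nuclear receptors and liver transcription factors, 9 were called in LFD-MTX50 against LFD, 3 in HFD against LFD and 2 in HFD-MTX50 against HFD, against 28.1%, 28.3% and 11% of all genes read (medians of 0.066, −0.2 and 0.133 on the log2 scale). Cux2, a repressor known from female liver, read −6.66, −8.20, −6.57 and −7.86 in LFD, above background on 1 of 4 arrays, and −0.56, −1.41, −1.52, −1.89 and −0.48 in LFD-MTX50, above background on all 5 (adjusted p 3.3e-05). In HFD-MTX50 it was −4.45, −3.58, −4.67, −6.37 and −6.56 in mice 1 to 5 and the 2 responses were unequal (adjusted p 0.0048). Cebpb (1.04) and Foxa3 (0.70) rose and Stat5a (−0.99), Foxa1 (−0.93) and Nfe2l2 (−0.72) fell in the lean treated liver. Hnf4a was lower in HFD than in LFD (−0.55 ± 0.16, adjusted p 0.018) and higher in HFD-MTX50 than in HFD (0.51 ± 0.15, adjusted p 0.038). The other called regulators were Stat5b (−0.70) and Rxra (0.26) in HFD and Nr5a2 (0.32) in HFD-MTX50.

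Of 20 growth hormone dependent sex-biased genes kept, 11 were called in LFD-MTX50 against LFD, 4 higher and 7 lower (backgrounds 28.1%, 17.6% and 10.5%), with 5 in HFD against LFD (background 28.3%) and 3 in HFD-MTX50 against HFD (background 11%, medians of −0.347, −0.06 and −0.301). The male-biased Elovl3, a fatty acid elongase, went from 4.12, 2.46, 3.61 and 4.37 to −3.51, −1.69, −2.60, −2.46 and −4.03 in the lean mice (adjusted p 4.2e-05). The male-biased steroid enzyme Hsd3b5 read 4.68, 4.46, 4.03 and 4.82 in LFD, 0.60, 0.35, −0.34, 1.62 and −2.94 in LFD-MTX50 and −3.85, −1.52, 3.45, 2.89 and 2.89 in HFD-MTX50. In the last group mouse 1 was the lowest in Hsd3b5, Elovl3 (−1.88) and Slco1a1. Other genes of the list did not share this order. Cyp4a12a was lowest in mouse 5 (−1.03, mouse 1 −0.50), and the female-biased Cyp2b9 was highest in mouse 2 (−1.42, mouse 1 −2.11). In LFD-MTX50 against LFD Cyp4a12a fell by 4.13 (adjusted p 6.6e-05), whereas Socs2, a feedback inhibitor of growth hormone signalling (2.68 ± 0.29), and Cyp2b9 (2.07 ± 0.63) rose. Sult3a1, female-biased too, was above background on 4 of 5 LFD-MTX50 arrays and at least 6.11-fold higher there than in LFD, where it was not well above background on any array. In HFD against LFD Cyp2b9 (2.49) and Hao2 (2.43) were among those higher and Gstp1 (−1.27) and Cyp4a12a (−1.20) lower. In HFD-MTX50 against HFD Cyp4a12a (−1.74) was among those lower and Socs2 (0.94) higher. Whether these genes and the transporters are linked was not tested.

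Of 20 target genes of CAR, PXR, PPAR, NRF2 and AHR kept, 8 were called in LFD-MTX50 against LFD (2 higher, 6 lower), 3 in HFD against LFD (all higher) and 3 in HFD-MTX50 against HFD (1 higher, 2 lower). The same comparisons called 28.1%, 28.3% and 11% of all genes read. Their medians were −0.544, −0.035 and −0.282. The AHR target Cyp1a2 fell by 1.73 in the lean treated liver (adjusted p 0.0036), Gsta2 by 1.59, Cyp1a1 by 1.39, Pdk4 by 1.28 and the glutathione synthesis gene Gclc by 1.17, while Cyp3a13 rose by 1.12 (adjusted p 0.0059). Cyp3a13 rose alike in HFD-MTX50 against HFD (1.08, adjusted p 0.017), where Gsta2 fell by 1.55 and Gstm3 by 1.40. The CAR target Cyp2b10 (2.24), Nqo1 (0.56) and Cpt1b (0.44) were higher in HFD. Of 4 scaffold and sorting partners that hold transporters at the membrane, Pdzk1ip1 (−2.46, adjusted p 0.011) and Gabarap (−0.36) were lower in HFD (background 10.4%), Gabarap was higher in HFD-MTX50 than in HFD (0.49), and in LFD-MTX50 against LFD none was called by limma (1, Pdzk1ip1, at an unadjusted p below 0.05).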

How the data were processed

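Liver RNA of 18 mice was hybridised to 1-colour Agilent arrays, 1 array per liver, and the authors deposited the scanner output of Agilent Feature Extraction 10.7.3.1. Per the file headers, its processed signal is an intensity with background subtracted and detrended within the array, and arrays were not normalized to each other. The authors' series value table repeats the background-subtracted intensity of these arrays to fewer digits and was tried as an alternative. The sources differ on the labelling kit.

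Control spots and spots marked as outliers were left out, the other spots of a probe were averaged, and log2 of each signal was taken minus log2 of the array's 75th percentile. Of 39429 probes, 28025 were named through a RefSeq table by transcript accession. The 35735 probes well above background on at least 4 arrays were fitted with limma 3.58.1 (R 4.3.3) in 1 model of 4 groups over all 18 arrays, with Benjamini-Hochberg adjustment. A gene was read on its brightest kept probe. The fit was tested on simulated data.

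The members were set by symbol, and the members and gene lists were chosen with earlier results of these data known. One member, with some genes of the lists, is not reported here. The text names the other members, gives values for those called in any comparison and for the 8 brightest, and names from each list the called genes up to 6 per comparison by size. It also names Slc19a1, Slc10a1, Abcc2 and Hnf4a whatever their values. Alternatives covered background correction (normexp on the median signals), scaling, filters, test, threshold, slide, replicate number, probes and single arrays. Mice were separate animals, and the 4 or 5 arrays per group limit the precision.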

Additional observations from a re-analysis of the deposited data

Results flagged for a closer look

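In 10 of 122 combinations of a member and a group, 1 array lay far from the others of its group by Dixon's criterion, which chance meets in about 1 in 20. HFD-MTX50 mouse 5 was high in Slc22a13 (2.56, next 1.74) and Slc22a20 (−3.30, next −4.35). HFD-MTX50 mouse 1 was low in Slc22a16 (−3.47, next −1.25) and high in Slc22a13b (−3.06, next −3.95), and HFD-MTX50 mouse 2 was low in Slc22a23 (0.605, next 1.16). HFD mouse 1 was high in Slco2a1 (1.02, next −0.07), Slc22a4 (−2.71, next −3.11) and Slc22a13b (−3.99, next −4.28). LFD-MTX50 mouse 5 was high in Slc22a7 (1.64, next 1.23), and LFD-MTX50 mouse 3 in Slc22a21 (−3.43, next −3.89).

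The methotrexate response differed between obese and lean mice for 10 members, given as the obese difference minus the lean one on the log2 scale with limma's adjusted p. It was positive for Slc22a17 (1.48, 0.0082) and Slc22a23 (0.92, 0.008). It was negative for Slc22a26 (−2.54, 0.013), Slc22a27 (−2.66, 0.015), Slc22a29 (−2.83, 0.014), Slc22a6 (−0.88, 0.013), Slco1a4 (−1.38, 0.0048), Slco1a6 (−2.61, 0.013), Slco3a1 (−0.62, 0.014) and Slco5a1 (−0.79, 0.0048).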

How the results depend on the processing

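Members called numbered 10 in HFD against LFD, 2 in HFD-MTX50 against HFD, 11 in LFD-MTX50 against LFD and 10 for the difference between the treatment effects, and the counts below follow that order. Over all 19597 genes read the counts were 5555, 2148, 5503 and 5243, and counts of all genes stand in parentheses below. With normexp the members called were 0, 0, 4 and 0, and Slco5a1 in HFD-MTX50 against HFD turned to 0.527. After normexp the array's 10th percentile lay from −4.55 to −0.36, against −7.47 to −5.98 before, and limma called 2, 0, 339 and 0 of all genes. A random slide block gave 2, 2, 2 and 6 (380, 1858, 340 and 1249). An added 2-fold threshold gave 4, 0, 6 and 6 (560, 191, 930 and 1556), the same member counts as an unadjusted p up to 0.015 and 2-fold. Quantile normalization gave 6 (3760) in HFD against LFD. Fitting only the 2 groups compared gave 20 (8168) there and 0 in HFD-MTX50 against HFD, and the Student test after adjustment 16 (6998) and 0. In the last comparison the fixed slide block and the shared slide alone also gave 0, and under each of these 4 settings 0 of all genes read were called there. The cause of these shifts was not tested. Leaving out 1 array gave 5 to 13, 1 to 6, 8 to 14 and 10 to 13 (2244 to 6281, 282 to 3034, 3187 to 6214 and 3007 to 6203). In HFD against LFD 5 were left without LFD mouse 2, HFD mouse 3 or HFD mouse 4 (3317, 2244 and 2556). Without LFD mouse 3 or HFD mouse 2 there were 6 left (4056 and 4507). All other settings stayed within 1.5 times the count.

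Same-numbered mice of different groups did not deviate together (correlation −0.314 to 0.255, median −0.021, over 25 pairs, with 5 of 18 arrays closest to their own number). With the replicate number as a block the counts were 10, 1, 12 and 10 (5319, 1013, 5415 and 5065 of all genes read).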
